A study of Mus musculus with 2 samples.

Results

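Tumour necrosis factor (TNF), its 2 receptors and 7 genes of the NF-kB pathway were followed across the cells of CT26 tumours. The 10 genes are Tnf, Tnfrsf1a, Tnfrsf1b, Tnfaip3, Nfkbia, Nfkbiz, Nfkb1, Nfkb2, Relb and Birc3. They were chosen by symbol, and each had 1 row among the 32285 genes of the count matrices. CT26 is a mouse colon carcinoma line, here grown under the skin of wild type BALB/c mice assigned at 5 weeks of age. Mice of the WQ-2101 group were injected into the peritoneum with 20 mg/kg each day from a tumour volume of about 100 mm³, control mice were given vehicle, and tumours were collected 17 days after implantation. The series title concerns macrophages after inhibition of PHGDH, an enzyme of serine synthesis, in tumour cells. Each group was 1 library of an unsorted tumour suspension with one shared batch label, and how many mice contributed to a library is not stated in the sources. With 1 library per group no difference below has a replicate error or a test, and every interval covers counting error only.

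TNF is a cytokine made mainly by activated myeloid cells and lymphocytes, and it signals through Tnfrsf1a, present on most cells, and Tnfrsf1b, more restricted to leukocytes. Both receptors can switch on NF-kB, a family of transcription factors held in the cytoplasm by inhibitors such as the protein encoded by Nfkbia. NF-kB in turn induces several of its own regulators, among them Nfkbia and the ubiquitin-editing enzyme encoded by Tnfaip3, so their transcripts are widely used as a sign of recent pathway activity. Tnf itself is a target of the pathway in macrophages.

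The promoters of the ligand gene Tnf and of the inhibitor gene Nfkbia are printed first, as examples. Any role of their sequences in the levels described further on was not tested. Each is the stretch of 250 bases before the RefSeq start site in GRCm38.p6, read 5′ to 3′ on the strand of the gene, and neither overlaps the annotated gene (Tnf, chr17:35199381-35202007, and Nfkbia, chr12:55489410-55492647, both on the minus strand of GRCm38). Capitals mark matches on either strand to a loose form of the kB site, GGG followed by any 5 bases and CC; overlapping matches run together.
Tnf, chr17:35202008-35202257, minus strand: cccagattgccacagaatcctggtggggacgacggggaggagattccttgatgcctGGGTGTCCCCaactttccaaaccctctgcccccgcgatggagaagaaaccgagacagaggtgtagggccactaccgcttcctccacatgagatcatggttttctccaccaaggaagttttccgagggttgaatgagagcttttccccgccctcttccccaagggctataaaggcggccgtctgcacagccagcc
Nfkbia, chr12:55492648-55492897, minus strand: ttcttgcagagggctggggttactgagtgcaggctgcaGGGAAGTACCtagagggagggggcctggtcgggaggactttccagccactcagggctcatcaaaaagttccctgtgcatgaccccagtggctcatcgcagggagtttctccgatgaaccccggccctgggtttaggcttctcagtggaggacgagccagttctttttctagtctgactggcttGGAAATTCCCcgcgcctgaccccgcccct
The Nfkbia window held 2 matches. The match nearest the start site lies 29 to 20 bases before it and reads GGGAATTTCC on the opposite strand. In the Tnf window a single stretch, beginning 194 bases before the start, matched on both strands. The table of promoters had windows for 7 of the 10 genes, 10 windows in all, and every one held the loose motif, which 45.8% of all 32851 windows of that length also hold.

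The vehicle library held 14374 barcodes and 184754398 UMIs (single captured transcripts), and that of WQ-2101 had 18142 barcodes with 185587327 UMIs in total. After filtering, 14213 and 18046 cells remained, with medians of 11033 and 8219 UMIs, and 73 barcode sequences occurred in both libraries. Cells were assigned to a type by the share of their UMIs on marker genes, none of which is one of the 10 genes. No type was given to 19.5% of the cells in vehicle and 26.6% in WQ-2101. The tumour gate held 6154 and 8649 cells and the macrophage and monocyte gate 4076 and 3354. Tumour markers (Hmga2, Krt14 and Slurp1) summed to 1356 and 1488 CPM (UMI counts scaled to the usual common total) in gated tumour cells against 45.2 and 63.0 CPM in macrophages. The 12 macrophage markers summed to 16078 and 14354 CPM in macrophages against 210 and 267 CPM in tumour cells. Throughout, a level is a gene's CPM over the summed UMIs of all cells of a type, and paired values are vehicle first and WQ-2101 second.

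Tnf was mainly found in myeloid cells, T cells and NK cells. Its highest mean level over the libraries was in neutrophils, at 590 CPM (95% Poisson interval 497 to 696) in vehicle and 124 CPM (72.2 to 198) in WQ-2101. Macrophages followed with 171 CPM (166 to 175) and 101 CPM (96.5 to 105). The intervals of neutrophils and macrophages were apart in the vehicle library and overlapped in the WQ-2101 library. T cells had 71.5 and 72.9 CPM, natural killer (NK) cells 51.1 and 83.0 CPM, and conventional dendritic cells 52.0 and 67.8 CPM. Migratory dendritic cells had 25.04 CPM (10.1 to 51.6) and 126 CPM (77.1 to 195). In the WQ-2101 library the intervals of these 4 types overlapped, and in vehicle that of migratory dendritic cells lay below that of T cells. Among T cells, those with Cd4 UMIs and none of Foxp3, Cd8a or Cd8b1 had 146 CPM (99.2 to 207) and 99.4 CPM (59.9 to 155), and those with Cd8a or Cd8b1 UMIs and neither Cd4 nor Foxp3 had 53.6 and 52.1 CPM. Fibroblasts had 7.60 and 8.40 CPM. The 244 B cells of the WQ-2101 library had 8.02 CPM (1.65 to 23.4), and the 12 of vehicle held 2 Tnf UMIs.

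Tumour cells had the lowest mean Tnf level of the 2 libraries among 11 types, 3.22 CPM (2.90 to 3.57) and 2.49 CPM (2.23 to 2.78). Macrophage markers in the same tumour cells stood at 1.31% and 1.86% of their level in macrophages, and the same shares of the macrophage Tnf level are 2.23 and 1.87 CPM. The part of free macrophage RNA in the Tnf of tumour cells was not tested, and Tnf was under the minimum of 5 CPM for a comparison of the libraries there.

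**Figure D1:**
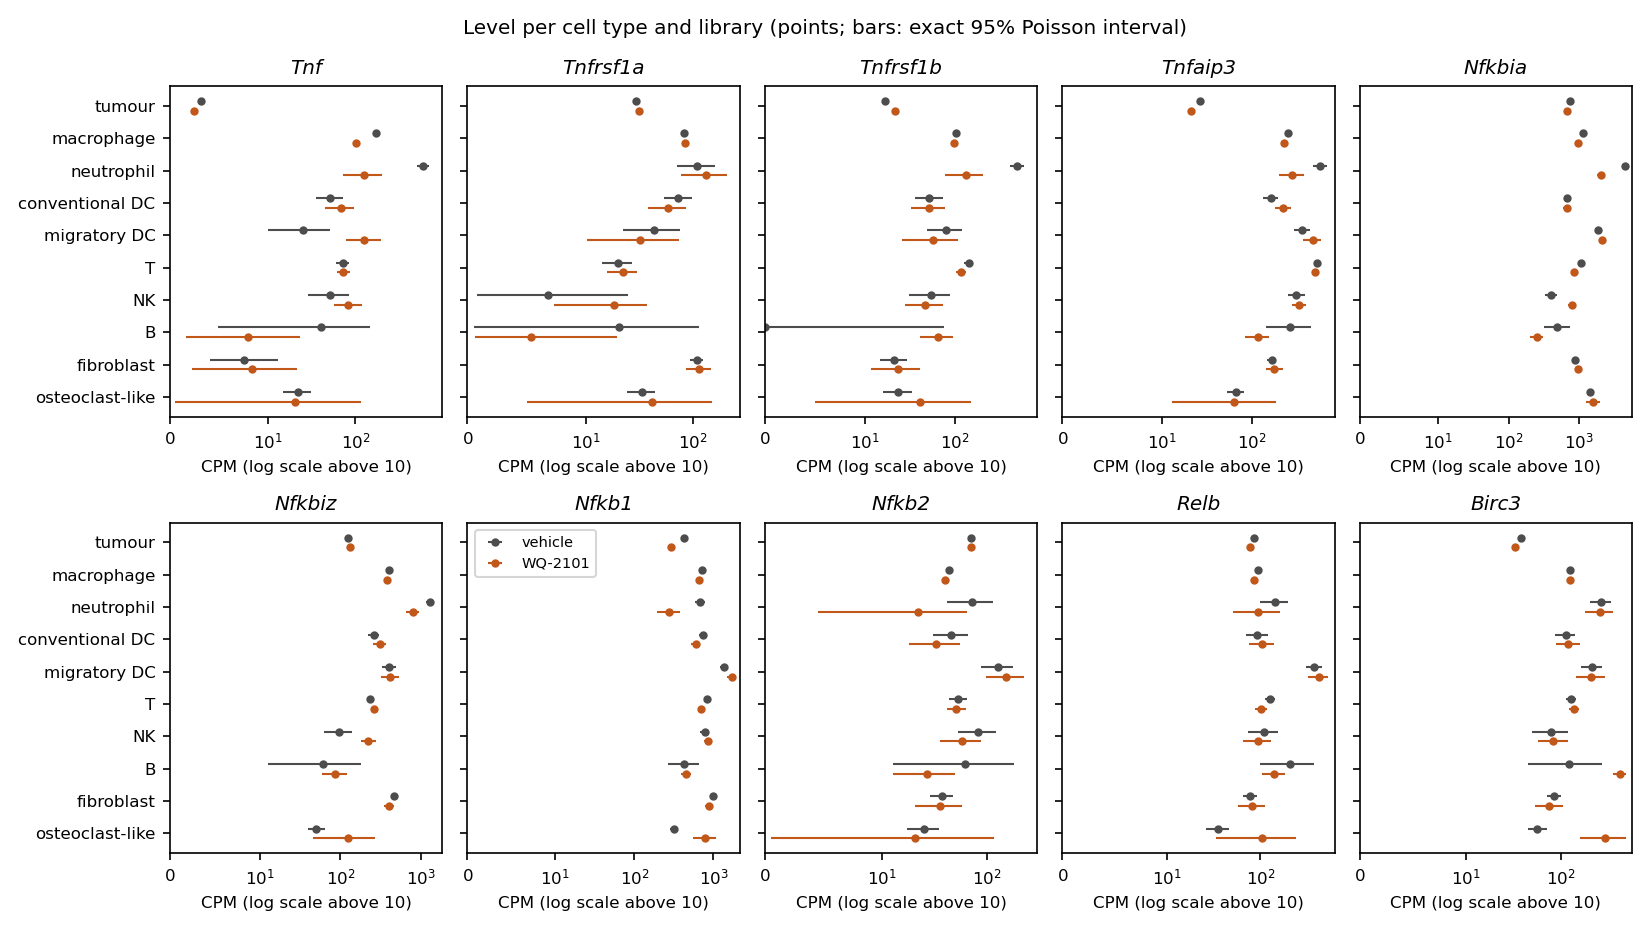
Level of each of the 10 genes (CPM, horizontal, linear to 10 and logarithmic above) by cell type (vertical) in the vehicle (grey) and WQ-2101 (orange) libraries, with exact 95% Poisson intervals. By the mean of the 2 libraries, Tnf peaks in neutrophils and macrophages, and Relb, Nfkb1 and Nfkb2 in migratory dendritic cells. In WQ-2101 alone, Tnf is at 126 CPM in migratory dendritic cells, 124 CPM in neutrophils and 101 CPM in macrophages. Tumour cells are at or near the bottom for Tnf, Tnfrsf1b, Tnfaip3 and Birc3.

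The receptors were distributed differently. Tnfrsf1a, the broadly expressed receptor with a death domain, was at 82.4 CPM (79.4 to 85.6) and 83.6 CPM (79.8 to 87.5) in macrophages, 108 and 113 CPM in fibroblasts and 138 and 89.5 CPM in endothelial cells. In tumour cells it was at 29.5 and 31.3 CPM, and in T cells at 19.6 and 22.0 CPM. The intervals of macrophages and fibroblasts lay above those of tumour and T cells in both libraries. Tnfrsf1b, the receptor of leukocytes, was highest in neutrophils, at 490 CPM (405 to 587) and 131 CPM (77.7 to 207). T cells had 143 and 116 CPM and macrophages 103 and 96.4 CPM, whereas fibroblasts had 21.0 and 23.1 CPM and tumour cells 16.7 and 21.5 CPM. Foxp3-positive T cells, 45 and 31 cells, had 146 CPM (98.6 to 209) and 316 CPM (213 to 451) of Tnfrsf1b, each from 30 UMIs.

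The inhibitors and brakes were highest in neutrophils or T cells by the mean of the libraries. Nfkbia, which encodes the main cytoplasmic inhibitor, was at 4511 CPM (4246 to 4788) and 2033 CPM (1801 to 2286) in neutrophils and at 1832 and 2122 CPM in migratory dendritic cells. Macrophages had 1128 and 976 CPM of it, T cells 1059 and 847 CPM, tumour cells 752 and 666 CPM and B cells 490 and 251 CPM. Nfkbiz encodes a nuclear member of the inhibitor family that acts with NF-kB on a subset of its targets. It was at 1293 and 787 CPM in neutrophils, 469 and 401 CPM in fibroblasts, 404 and 417 CPM in migratory dendritic cells and 400 and 378 CPM in macrophages. Neutrophils were above fibroblasts beyond the intervals in both libraries, and fibroblasts and migratory dendritic cells overlapped in both. Tnfaip3 was at 524 CPM (493 to 557) and 498 CPM (467 to 531) in T cells, 569 and 277 CPM in neutrophils and 358 and 467 CPM in migratory dendritic cells. Macrophages had 247 and 223 CPM of it, and tumour cells only 26.3 and 21.0 CPM.

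The NF-kB subunits had their highest levels in migratory dendritic cells, a mature state marked by Ccr7 in which the pathway is known to be active (46 cells in each library). Nfkb1, which encodes the p50 subunit and its precursor, was at 1359 CPM (1226 to 1503) and 1699 CPM (1502 to 1914) there, against 994 and 872 CPM in fibroblasts, 839 and 701 CPM in T cells and 712 and 648 CPM in macrophages. Nfkb2, which encodes the p52 subunit of the non-canonical branch, was at 125 CPM (87.2 to 174) and 152 CPM (97.1 to 226), and tumour cells, at 70.2 and 70.6 CPM, had more of it than macrophages, at 42.9 and 40.1 CPM. Relb, the partner of p52, was at 372 CPM (304 to 451) and 417 CPM (322 to 530) in migratory dendritic cells and at 92.9 and 103 CPM in conventional dendritic cells. For these 3 genes the migratory cells stood above the conventional dendritic cells beyond the intervals in both libraries. Birc3, which encodes a ubiquitin ligase of the TNF receptor complex, was at 412 CPM (349 to 482) in the 244 B cells of the WQ-2101 library, at 123 CPM (45.0 to 267) in the 12 B cells of the vehicle library, and at 264 and 255 CPM in neutrophils.

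Across the 10 cell types with 50 or more cells in the libraries together, the Tnf profile was most like those of Lilrb4a, Lilr4b and Ccrl2 among 6527 genes, with Pearson r of log2 CPM plus 5 of 0.965, 0.954 and 0.944. Lilrb4a and Lilr4b are close paralogs, and reads could be split between them. Nfkbia was most like Ehd1 (r 0.961), Nfkbiz like Stk40 (0.973) and Dusp1 (0.947), Tnfaip3 like Icam1 (0.898) and Relb like Helz2 (0.9504). The nearest genes were Socs3 for Tnfrsf1a (0.956), Atg7 for Tnfrsf1b (0.961), Glipr2 for Nfkb1 (0.905), Nfat5 for Nfkb2 (0.941) and Galnt11 for Birc3 (0.919). Between the 10 genes, the closest pair was Tnf with Tnfrsf1b (0.895), and Nfkb2 with Relb reached 0.748. All points share the same 2 libraries, the types differ widely in depth, and these values are descriptions.

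In macrophages, Tnf was the 1 gene of the 10 that differed by 1.5-fold or more between the libraries, which 1.61% of the 9363 genes measured there did. The measure of change was the log2 ratio of CPM plus 5, WQ-2101 over vehicle, for genes with a mean of at least 5 CPM. Tnf had 170.9 CPM from 5661 UMIs in vehicle and 100.6 CPM from 2208 UMIs in WQ-2101, a ratio of 0.589 (exact interval 0.560 to 0.619) and a log2 ratio of -0.74. A difference of that size downward was seen in 0.534% of genes. The other 9 genes had log2 ratios from -0.21 to 0.02, beside a median over all measured genes of 0.0024. Nfkbia had the lowest of these ratios, 0.865 (0.851 to 0.880), and Tnfaip3 had 0.900 (0.868 to 0.932). Nfkb1 had 0.910 (0.892 to 0.930), Relb 0.906 (0.855 to 0.960) and Nfkbiz 0.945 (0.919 to 0.971). The receptors had 1.01 (0.955 to 1.08) for Tnfrsf1a and 0.936 (0.886 to 0.988) for Tnfrsf1b, and Birc3 had 1.00 (0.954 to 1.05). The ratio of the ligand was thus further from 1 than that of any inhibitor, subunit or receptor.

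Fewer macrophages carried a detectable Tnf transcript. With each cell thinned to 2000 UMIs, 22.0% of 3965 vehicle macrophages (Clopper-Pearson interval 20.7 to 23.3) and 13.4% of 3165 WQ-2101 macrophages (12.2 to 14.6) had a Tnf UMI. The cells left out for lower depth numbered 111 and 189, and the shares before thinning were 46.9% and 28.8%, at median depths of 7567 and 6256.5 UMIs. Tumour cells, thinned to the same depth, had a Tnf UMI in 0.554% and 0.431%. The largest number in a thinned macrophage was 10 Tnf UMIs in vehicle and 9 in WQ-2101. The variance of Tnf UMIs per cell was 2.14 and 2.08 times their mean, against 1.06 and 1.04 times for Tnfrsf1a and 1 for counts spread at random. For Nfkbia this measure was 2.201 and 2.08 times, for Nfkb1 1.91 and 1.86, for Nfkbiz 1.84 and 1.58 and for Tnfaip3 1.42 and 1.32.

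Tnf was lower in WQ-2101 in each of the 6 macrophage subsets. The Mmp12-high subset with hypoxia genes had 291 CPM (274 to 309) and 111 CPM (99.4 to 124), a log2 ratio of -1.35. C1q-high macrophages had 214 and 114 CPM (-0.88), and monocytes with Ly6c2 and Plac8 had 129 and 65.9 CPM (-0.92). The Fn1 and Hopx subset had 112 and 69.2 CPM (-0.65). The MHC class II and Dcstamp-high subset, with 134 and 88.4 CPM (-0.58), and the cycling subset, with 164 and 111 CPM (-0.54), were just under 1.5-fold. The intervals of the libraries did not overlap in any subset. Tnf was the only one of the 10 genes past 1.5-fold lower in the first 4 subsets, where 2.11%, 1.37%, 2.56% and 2.04% of measured genes were, and none of the 10 was in the other 2, where 0.703% and 0.706% were. The subset scores are ranges rather than separate types, and 251 macrophages in each library lay near a border. The subsets made up different shares of the libraries, with the Fn1 and Hopx subset at 19.7% and 6.98% of macrophages and the MHC class II subset at 14.5% and 26.3%. With every subset given the same share, the log2 ratio of Tnf was -0.82, and over all 10 alternatives tried it lay between -0.82 and -0.65.

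**Figure D2:**
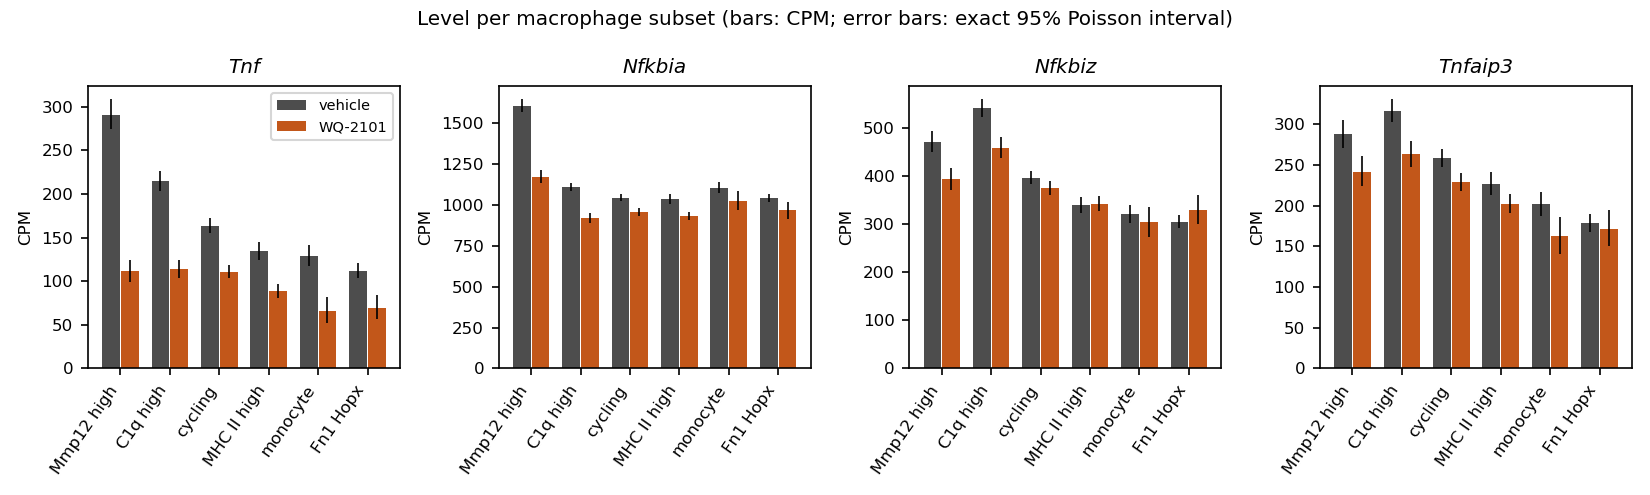
Level (CPM, vertical, from 0) of Tnf, Nfkbia, Nfkbiz and Tnfaip3 in 6 macrophage subsets of the vehicle (grey) and WQ-2101 (orange) libraries, with exact 95% Poisson intervals. Tnf is lower in WQ-2101 in all 6 subsets. The difference is largest as a ratio in Mmp12-high cells, 291 and 111 CPM, and smallest in cycling cells, 164 and 111 CPM. The other 3 genes have ratios between the libraries nearer 1 than Tnf in every subset.

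The feedback genes also varied between the subsets. Nfkbiz ran from 305 CPM in vehicle Fn1 Hopx cells to 542 CPM in vehicle C1q-high cells, and from 304 to 460 CPM over the subsets of WQ-2101. Tnfaip3 was likewise highest in C1q-high cells, 316 and 263 CPM, and lowest in Fn1 Hopx cells of vehicle, 179 CPM, and in monocytes of WQ-2101, 162 CPM. Nfkbia was highest in Mmp12-high cells, 1605 CPM (1566 to 1646) and 1171 CPM (1131 to 1212). Its smallest values were 1035 CPM in the MHC class II subset of vehicle and 920 CPM in the C1q-high subset of WQ-2101. Tnfrsf1b was also highest in Mmp12-high cells, 145 and 152 CPM, and Tnfrsf1a in monocytes, 102 and 106 CPM.

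Macrophages with a Tnf UMI after thinning carried more of the feedback transcripts than macrophages without one, in both libraries. Before thinning 46.9% and 28.8% had a Tnf UMI, so some cells counted here as without one did hold Tnf. In cells thinned to 2000 UMIs, Nfkbiz was at 681 CPM with and 340 CPM without a Tnf UMI in vehicle, and at 628 and 331 CPM in WQ-2101, ratios of 2.004 (1.86 to 2.15) and 1.90 (1.72 to 2.09). The ratios were 1.67 (1.51 to 1.83) and 1.72 (1.51 to 1.96) for Tnfaip3, and 1.60 (1.53 to 1.68) and 1.51 (1.42 to 1.61) for Nfkbia. Birc3 followed with 1.37 and 1.36 and Nfkb1 with 1.26 and 1.20. The receptor Tnfrsf1a, at 1.05 and 1.05, and Nfkb2, at 1.16 and 0.939, had intervals that included 1. Relb, at 1.35 and 1.12, and Tnfrsf1b, at 1.33 and 1.11, had intervals above 1 in vehicle only, and the difference between the libraries was not tested. The macrophage markers had ratios of 0.992 and 1.05, and the chemokines Ccl3 and Ccl4 had 2.24 and 2.40 in vehicle and 3.23 and 3.36 in WQ-2101. Cxcl2 had lower ratios than these chemokines, 1.6738 in vehicle and 1.4499 in WQ-2101. Il1b was nearer the macrophage markers, at 1.0953 in vehicle and 1.0801 in WQ-2101.

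**Figure D3:**
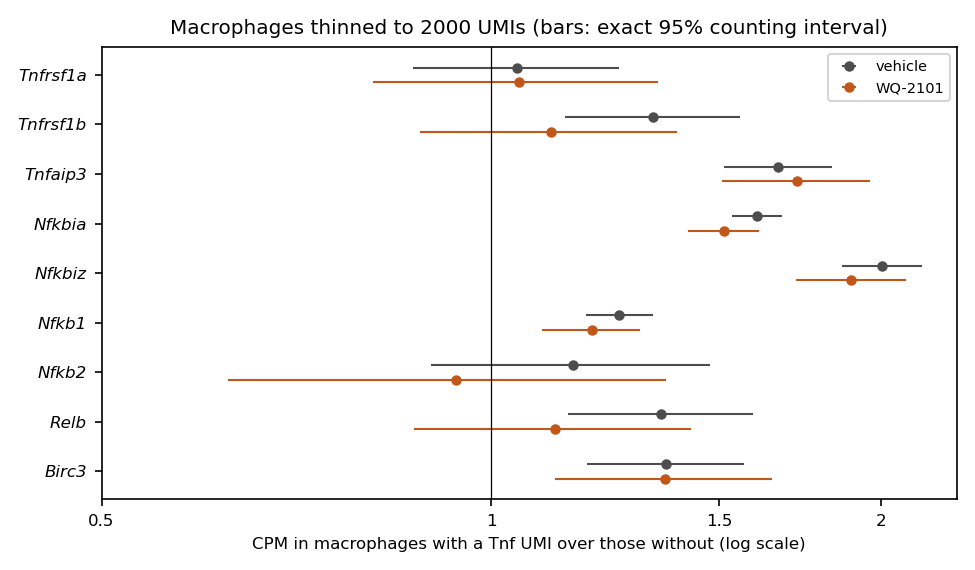
Ratio of the level (CPM) in macrophages with at least 1 Tnf UMI to that in macrophages without one (horizontal, log scale) for the other 9 genes (vertical), after thinning to 2000 UMIs, with exact 95% intervals, in vehicle (grey) and WQ-2101 (orange). Nfkbiz, Tnfaip3 and Nfkbia stand furthest to the right, at ratios from 1.51 to 2.004, and Tnfrsf1a sits at 1.05 in both libraries.

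Genes that enzymatic dissociation at 37 degrees is known to induce moved with the same transcripts. The 14 dissociation genes (among them Fos, Jun, Egr1, Atf3 and Hspa1a) summed to 7419 and 6662 CPM in macrophages, and their ratio between cells with and without a Tnf UMI was 1.32 and 1.34. With macrophages of both libraries divided into 4 equal bins by the share of their UMIs on these genes, Tnf went from 89.4 CPM in the lowest bin to 310 CPM in the highest in vehicle, and from 50.2 to 196 CPM in WQ-2101. Nfkbiz went from 228 to 683 CPM and from 250 to 619 CPM, and Tnfaip3 from 130 to 410 CPM and from 125 to 383 CPM. Nfkbia spanned a narrower range, 845 to 1440 CPM and 816 to 1184 CPM, and Tnfrsf1a showed no order, with 78.2 and 80.3 CPM in the lowest and highest bins of vehicle.

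Both comparisons were repeated within bins. Tnf in WQ-2101 was 0.562, 0.651, 0.670 and 0.632 times its vehicle level, from the lowest bin to the highest. The highest bin held 27.4% of vehicle and 22.1% of WQ-2101 macrophages. Within bins the cells were also divided by a Tnf UMI, a division added after the data had been seen. The dissociation list then had ratios of 0.982 to 1.08 between cells with and without a Tnf UMI. The bins were cut on these same genes, which holds that ratio near 1. Nfkbia had ratios of 1.35 to 1.61, with an interval above 1 in 8 of 8 bins of the libraries. Nfkbiz had 1.33 to 1.93, above 1 in 7 of 8, and Tnfaip3 1.02 to 1.68, above 1 in 6 of 8. Within the 6 subsets the ratio of Nfkbiz was 1.54 to 2.28, above 1 in 12 of 12, that of Nfkbia 1.27 to 1.71, above 1 in 11 of 12, and that of Tnfaip3 1.29 to 2.003, above 1 in 9 of 12. The dissociation list itself had ratios of 1.09 to 1.51 within subsets, also above 1 in 11 of 12. These intervals assume Poisson counts, and over all macrophages Nfkbia, Nfkbiz and Tnfaip3 varied more than that. The part of dissociation in the levels of Tnf and the feedback genes was not tested beyond these values.

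**Figure D4:**
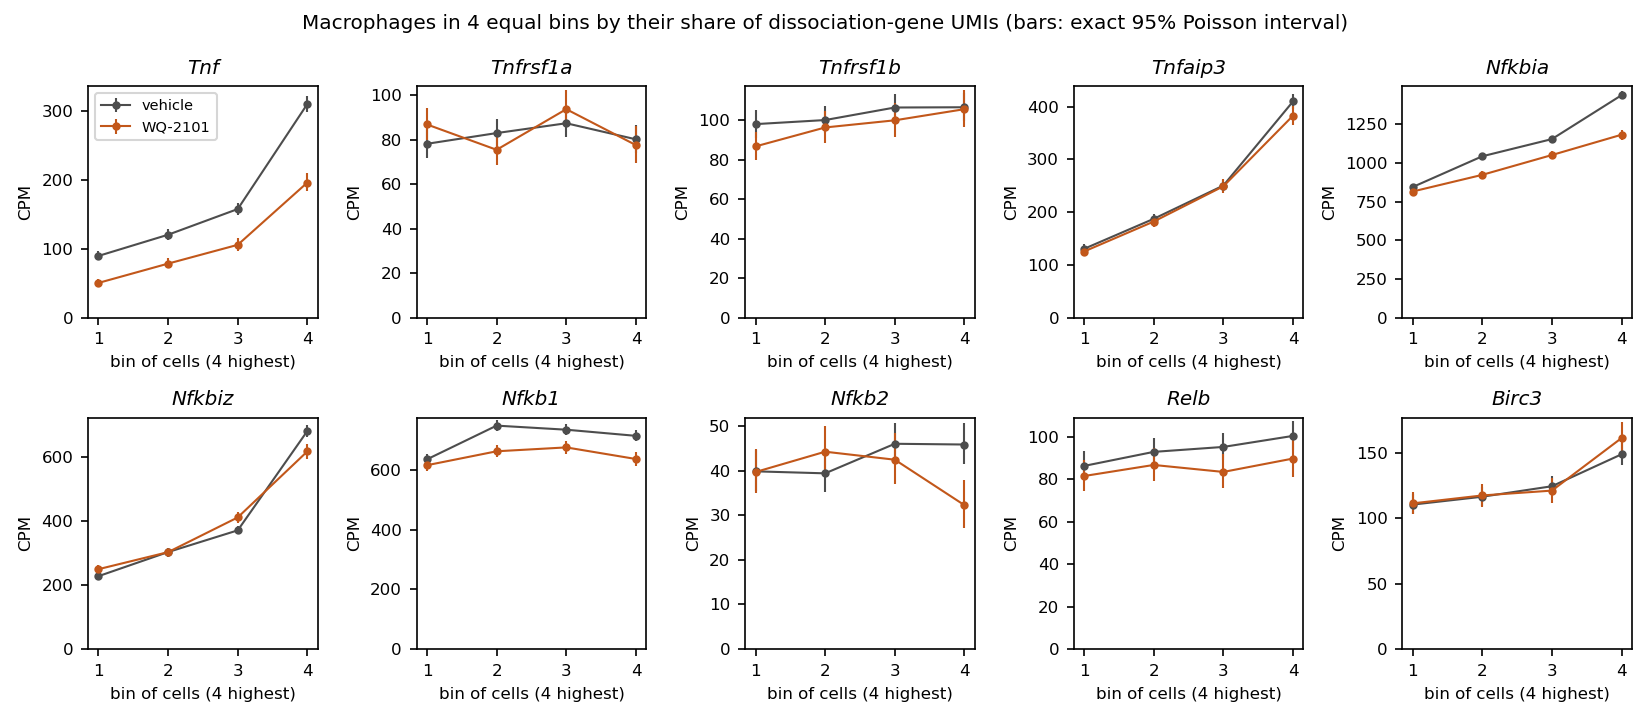
Level (CPM, vertical, from 0) of each of the 10 genes in macrophages divided into 4 equal bins by their share of dissociation-gene UMIs (horizontal, 4 is highest), in vehicle (grey) and WQ-2101 (orange), with exact 95% Poisson intervals. Tnf, Nfkbiz and Tnfaip3 climb from the lowest to the highest bin, Tnfrsf1a has no order, and Tnf in WQ-2101 lies below vehicle in all 4 bins.

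In tumour cells, 0 of the 9 genes with enough signal passed 1.5-fold, where 1.3% of 10026 measured genes did. Nfkb1 came nearest, with 428 CPM (424 to 432) and 287 CPM (284 to 290), a ratio of 0.672 (0.663 to 0.681) and a log2 ratio of -0.57. It passed 1.5-fold with a stricter tumour gate or with all cells weighted alike, at log2 ratios of -0.61 and -0.60. Nfkb1 was lower in WQ-2101 in each of the 10 tumour clusters, by most in a cluster led by histone genes, 456 and 299 CPM. It was lower by least in a cluster with Rpgrip1, Cd74 and Ccl4 among its leading genes, 179 and 171 CPM. There, and in the clusters with both Mt1 and Cryab among their leading genes, the intervals of the libraries overlapped. The clusters were present in different shares. The Col3a1-high cluster, which had the most Nfkb1, 648 and 570 CPM, was 18.7% of vehicle and 7.75% of WQ-2101 tumour cells, and with every cluster given the same share the log2 ratio was smaller, at -0.36. The log2 ratio of Nfkbia then went from -0.17 to -0.034 and that of Tnfaip3 from -0.27 to -0.13.

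The remaining genes of tumour cells differed little. Tnfrsf1b was higher in WQ-2101, with a ratio of 1.29 (1.22 to 1.37), and Tnfaip3 lower, with 0.798 (0.757 to 0.841). Nfkbia had 0.885 (0.877 to 0.894), and Nfkb2 1.01 (0.977 to 1.04). The Col3a1-high cluster also had the most Nfkbia, 1045 and 1304 CPM, Nfkbiz, 194 and 221 CPM, and Tnfaip3, 48.0 and 50.7 CPM. The cluster led by Iigp1 and Cxcl9, targets of interferon gamma, had 818 and 866 CPM of Nfkbia, and those with both Mt1 and Cryab among their 6 leading genes had between 396 and 565 CPM. The dissociation genes summed to 5116 and 4433 CPM in tumour cells, and their part in these differences was not tested.

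**Figure D5:**
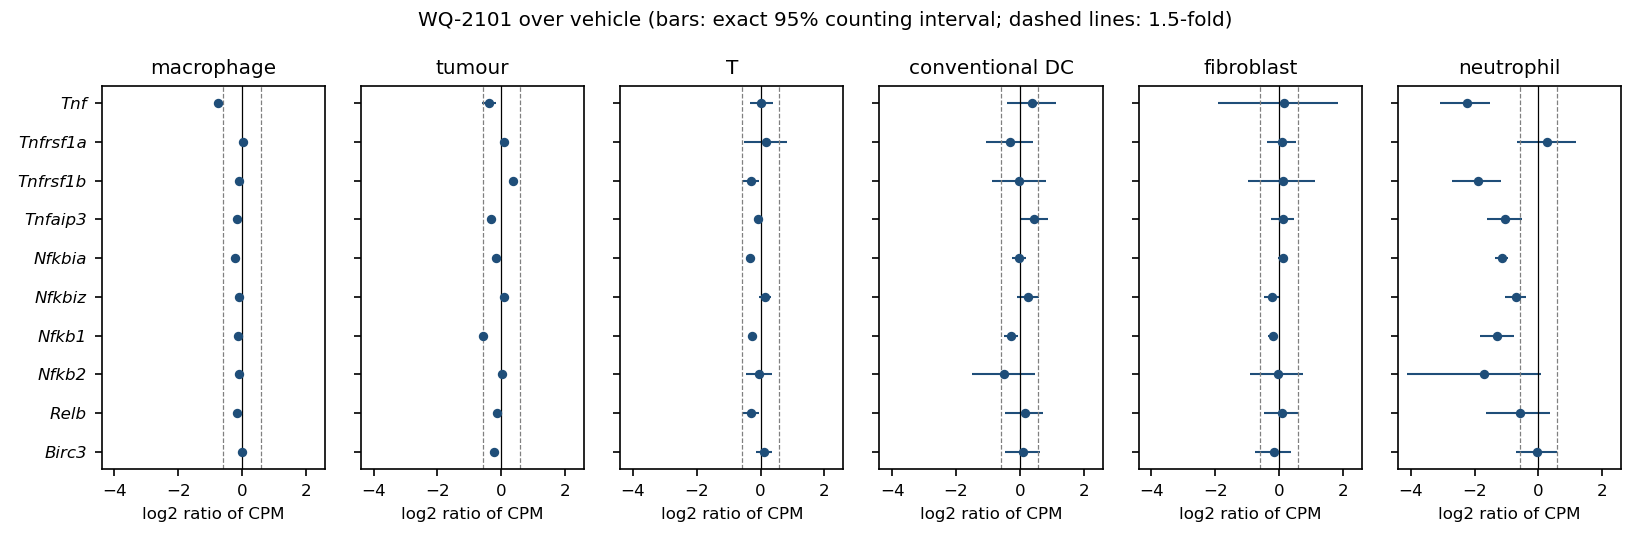
Log2 ratio of CPM, WQ-2101 over vehicle (horizontal), for the 10 genes (vertical) in 6 cell types, with exact 95% counting intervals; dashed lines mark 1.5-fold. Tnf alone lies beyond the lines in macrophages, Nfkb1 touches the lower line in tumour cells, and most neutrophil points lie to the left.

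T cells (535 and 634 cells), conventional dendritic cells (89 and 77) and fibroblasts (165 and 56) each had 0 of 10 genes past 1.5-fold. Among all measured genes 6.57%, 23.4% and 21.7% were past it in these types. Tnf in T cells had a ratio of 1.02 (0.800 to 1.30), an interval that lies wholly above that of macrophages; the difference between the types was not tested. Nfkbia in T cells was lower, at 0.800 (0.749 to 0.855), and so was Nfkb1, at 0.836 (0.777 to 0.899). In conventional dendritic cells Tnfaip3 was at 1.37 (1.02 to 1.83) and Tnf at 1.31 (0.765 to 2.22). Neither direction held under all alternatives, with log2 ratios from -0.13 to 0.45 for Tnfaip3 and from -0.41 to 0.39 for Tnf. In fibroblasts the interval of Tnf ran from 0.263 to 3.58, so a difference of 1.5-fold was not detectable at this depth.

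Neutrophils had 7 of 10 genes lower in WQ-2101 and 0 higher, but in this small class 47.3% of measured genes were past 1.5-fold, 21.7% lower and 25.6% higher. There were 172 and 79 neutrophils, with median depths of 1013 and 970 UMIs. Tnf had a ratio of 0.210 (0.119 to 0.348) from 141 and 17 UMIs, Tnfrsf1b 0.268 (0.153 to 0.442), Nfkbia 0.451 (0.394 to 0.515), Nfkb1 0.408 (0.279 to 0.585), Tnfaip3 0.487 (0.330 to 0.702) and Nfkbiz 0.609 (0.484 to 0.760). Nfkb2, called from 17 and 3 UMIs, had an interval of 0.0577 to 1.06. The calls of 2 genes depended on the setting: Tnfaip3 was at a log2 ratio of -0.44 with cells weighted alike, and Nfkbiz was under 1.5-fold in 4 alternatives, at -0.40 in cells with 2000 or more UMIs. Without neutrophils rich in macrophage markers, Tnfrsf1a, at 0.91, and Birc3, at 0.76, were past 1.5-fold higher, as was Tnfrsf1a, at 0.72, with cells weighted alike. Relb was past 1.5-fold lower in cells with 2000 or more UMIs, at -0.88, and after scaling to the median ratio of all genes, at -0.67. The neutrophils of the libraries were unlike in other ways. Their own markers (S100a8, S100a9 and 4 others) summed to 43518 and 105625 CPM and the dissociation genes to 13637 and 9137 CPM. Macrophage markers in them were at 27.3% and 29.9% of the level in macrophages. If all of this were macrophage RNA, it would bring 46.6 and 30.1 CPM of Tnf. For Nfkb1 it would bring 194 and 194 of 678 and 277 CPM, and for Nfkb2 11.7 and 12.0 of 71.1 and 21.9 CPM. In WQ-2101 it would be a smaller part of the other lower genes. Whether these markers were carried in or are the neutrophils' own was not tested. The part of the unequal neutrophil markers, dissociation genes and macrophage markers in the 7 lower genes was not tested.

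The wider pathway was described with lists of other genes. Among all measured genes 0.534% were lower and 1.08% higher in macrophages, and 0.449% lower and 0.848% higher in tumour cells. In macrophages none of 7 other subunit and inhibitor genes, 24 kinases and adaptors or 13 other brakes was past 1.5-fold. Rela, the main activating subunit, was at 53.2 and 56.4 CPM and Rel at 396 and 434 CPM. Of 29 measured canonical targets 2 were lower, Ccl2 at 726 and 313 CPM and Cxcl3 at 95.05 and 46.8 CPM, both chemokines, and 1 was higher, Ccl5 at 59.1 and 133 CPM. The median log2 ratio of the targets was -0.04, and Il1b was at 2527 and 2132 CPM. Of 12 measured TNF family ligands and receptors 2 were higher, Tnfrsf9 (a costimulatory receptor) at 37.5 and 106 CPM and Tnfsf13b (a B cell survival factor) at 10.6 and 20.6 CPM. Of the 14 dissociation genes, Hspa1b, at 38.3 and 137 CPM, and Hspa1a, at 84.8 and 153 CPM, were higher and Egr1, at 273 and 175 CPM, was lower.

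In tumour cells the same lists had few calls. None of 7 subunit and inhibitor genes or 23 measured kinases and adaptors was past 1.5-fold. Of 11 measured brakes, Ptpn22 was higher, at 8.19 and 16.2 CPM. Of 21 measured targets Ccl5, at 13.1 and 23.3 CPM, and Ccl4, at 17.0 and 28.2 CPM, were higher and Cxcl1, a neutrophil chemokine, was lower, at 532 and 332 CPM. Leukocyte markers in the same tumour cells were also higher in WQ-2101. Macrophage markers summed to 210 and 267 CPM, T cell markers to 6.70 and 12.2 CPM, and the leukocyte gene Ptprc was at 7.98 and 13.1 CPM. The part of free leukocyte RNA in Ptpn22, Ccl5 and Ccl4 was not tested. The dissociation genes Fos, at 575 and 357 CPM, and Fosb, at 272 and 151 CPM, were lower and Hspa1b, at 46.3 and 89.8 CPM, was higher. In neutrophils 22 of 28 measured targets were lower and 1 was higher, with a median log2 ratio of -1.27 beside 0.11 over all genes, of which 21.7% were lower and 25.6% higher. The unequal neutrophil markers and dissociation genes of the libraries, given above, apply to this count too, and their part in it was not tested. Conventional dendritic cells went the other way, with 14 of 29 measured targets higher, 2 lower and a median log2 ratio of 0.56. Among all genes there 12.1% were higher and 11.3% lower. Their dissociation genes summed to 5874 and 6959 CPM, and the part of these was not tested. T cells had 0 of 27 targets higher and 4 lower, beside 2.86% and 3.71% of all genes. Fibroblasts had 5 of 25 higher and 3 lower, beside 13.3% and 8.4%.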

How the data were processed

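Droplet 3′ single-cell libraries of 2 CT26 tumour suspensions were analysed. The deposited values are raw UMI counts per gene and barcode; per the file headers they come from Cell Ranger 7.2.0. A different version, 2.2.2, and the GRCm38 build stand in the submitters' processing notes. No source used here says how introns were counted or whether free RNA was removed.

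Everything else was computed with Python 3.11.15, numpy 2.4.6, scipy 1.17.1, pandas 2.3.3, scikit-learn 1.9.0, igraph 0.11.9 and matplotlib 3.10.9. Barcodes with at least 500 UMIs, 300 genes and at most 15% mitochondrial UMIs were kept. Types were gated on marker shares; cells passing more than 1 gate (22 and 50) or carrying markers of another type were left out, and no doublet caller was run. Gate thresholds were set after marker sums, but not the 10 genes' values, had been seen. Macrophage subsets came from marker scores, and Leiden clusters (2000 variable genes without the 10 genes, 30 components) served as an alternative and to divide tumour cells. Types were compared with 50 or more cells in each library, except 2 smaller ones whose values stand in the closing section; calls needed a mean level of at least 5 CPM and a ratio of 1.5-fold, either way, after adding 5 CPM. Intervals are exact (95% Poisson, conditional or Clopper-Pearson). The call rule and the intervals were tested on simulated Poisson counts, for which such intervals hold by construction. In thinned macrophages, counts of Tnf, Nfkbia, Nfkb1, Nfkbiz and Tnfaip3 varied more than Poisson counts. Their variance was 1.32 to 2.20 times their mean, so the simulation does not show how the intervals perform there.

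The 10 genes and the lists were chosen with earlier results of these data known. The text names all 10 genes, up to 3 genes most like each, and list genes past 1.5-fold in macrophages or tumour cells. Named outside that rule are Rela, Rel, Il1b, Cxcl2, Ccl3 and Ccl4 in macrophages, Ptprc in tumour cells, and the genes that lead tumour clusters. The split of cells by a Tnf UMI within subsets and within bins of the dissociation share was added after the data had been seen. Coordinates and promoters are from GENCODE vM21 and RefSeq, GRCm38. Alternatives were stricter gates, a depth minimum, clusters, equal cell weights, other pseudocounts and level minimums, median scaling, and leaving out the cells highest in dissociation genes.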

Additional observations from a re-analysis of the deposited data

Results flagged for a closer look

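A few genes differed past 1.5-fold in opposite directions between cell types, with counting intervals that excluded 1 in both; these differences were not tested, and each rests on 1 library per group. Tnf was 5.04 times its vehicle level in WQ-2101 migratory dendritic cells (2.05 to 14.1), from 7 and 20 UMIs in 46 cells of each library, against 0.589 in macrophages and 0.210 in neutrophils. Among all genes measured in those cells 23.6% were past 1.5-fold higher and 22.5% lower. The dissociation genes in those dendritic cells summed to 4740 and 6239 CPM. Nfkbia was 1.96 times its vehicle level in NK cells (1.58 to 2.44), at 402 and 786 CPM, against 0.451 in neutrophils. Nfkbiz was 2.34 times its vehicle level in NK cells (1.51 to 3.72), at 95.4 and 223 CPM, against 0.609 in neutrophils. Among all genes measured in NK cells 22.3% were past 1.5-fold higher and 13.2% lower. There were 49 and 70 NK cells, with median depths of 5775 and 3634 UMIs, and their dissociation genes summed to 3780 and 4363 CPM. Both types had fewer than the 50 cells in a library that the comparisons of the report required. The part of dissociation and depth in these values was not tested.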

How the results depend on the processing

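No paired analysis was possible because each group is 1 library. The counts of genes past 1.5-fold in macrophages, T cells, neutrophils and fibroblasts stayed within 1.5 times under every alternative run. In tumour cells the count was 1 in place of 0 with the stricter gate and with cells weighted alike, Nfkb1 each time; in conventional dendritic cells it was 1, Nfkb2, with the stricter gate and without the cells highest in dissociation genes. The alternatives for dendritic cells and fibroblasts, equal shares of tumour clusters, and the exclusion of neutrophils rich in macrophage markers (9 genes past 1.5-fold, 7 lower and 2 higher) were chosen after seeing the data. The share of macrophages with a Tnf UMI was 13.5% in vehicle and 7.85% in WQ-2101 at 1000 UMIs, 33.7% and 21.7% at 4000 UMIs, and 46.9% and 28.8% without thinning; the ratio of the shares stayed between 0.581 and 0.644. With clusters in place of gates, 9 of the 10 genes kept the type with the highest mean level, Tnfaip3 being the exception. Of the single-gene values under alternatives, 520 were counted as unchanged and 43 as moved, and no called value changed sign. A value was unchanged when it stayed within its counting interval or, for the ratio of the Tnf shares, within a set fold. A different minimum level cannot alter a log2 ratio, so the values under those alternatives were unchanged by construction. Intervals are wide in types with few cells, which makes staying within them easy there. Small numbers of UMIs limit the types with few cells, and variation between mice cannot be told apart from treatment.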
